A study of Rattus norvegicus with 6 samples.

Results

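Glucose uptake and glycolysis were followed through 10 listed genes, chosen by name: the glucose transporter gene Slc2a1, the hexokinase genes Hk1 and Hk2, the phosphofructokinase genes Pfkl and Pfkp, and Aldoa, Tpi1, Pgk1, Pkm and Ldha of the later steps. Of these, 9 were analysed here, among 18077 rows per count table, and Pgk1 was not analysed here. RNA was sequenced from cultures that the labels describe as cardiomyocytes of rats aged 1 to 3 days. Both groups carried an adenoviral vector and had been exposed for 24 h to palmitic acid, a saturated fatty acid, at 500 µM. The first group comprised 3 libraries labelled Ad-RNF128, for overexpression of the ubiquitin ligase RNF128, and the second 3 libraries labelled Ad-GFP, the control vector with green fluorescent protein. The labels name no promoter for the vector and no separate animals, so the spread behind each p-value may be technical.

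Glucose enters a cell through facilitative transporters and is trapped by hexokinases as glucose 6-phosphate. Phosphofructokinase then commits it to glycolysis, and aldolase, triose phosphate isomerase, pyruvate kinase and lactate dehydrogenase carry it on to pyruvate and lactate. The newborn heart relies strongly on glucose and shifts towards fatty acids as a fuel after birth, and fatty acids in turn restrain glucose use.

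Totals ran from 17099149 to 21708973 counts in the libraries labelled Ad-RNF128 and from 16352844 to 21332585 counts in Ad-GFP. The rat Rnf128 row held 1, 3 and 1 counts in the libraries labelled Ad-RNF128 and 0, 2 and 1 counts in Ad-GFP, so it does not bear out the label, and the treatment text itself writes both RNF28 and RNF128. The label stands unchecked, and every direction given here rests on it. Rnf157, the gene of another ubiquitin ligase, was at 1923, 2553 and 2089.8 CPM (counts per 1000000 counts of the library) in the libraries labelled Ad-RNF128, against 22.3, 39.6 and 40.4 CPM in Ad-GFP. Ad-GFP replicate 1 stood apart from the other 5 libraries: its Spearman correlations with them ran from 0.776 to 0.818, and 3551 of its rows held no read, against 1190 to 2288 elsewhere. It is shown separately, and each comparison is given with Ad-GFP replicates 2 and 3 as the controls and with all 3. Markers of the labelled cell type were low. Of 9 cardiomyocyte markers with a row, 3 averaged at least 5 CPM, and Nppa and Actn2 did not exceed 3.97 and 2.02 CPM in any library. The summed cardiomyocyte markers were at 35.1 to 101 CPM in the libraries labelled Ad-RNF128. They were at 384 and 385 CPM in Ad-GFP replicates 2 and 3 and 61.6 CPM in replicate 1. This difference lay mostly in Tnnt2, at 57.4, 42.3 and 34.0 CPM in the libraries labelled Ad-RNF128. Tnnt2 was at 342 and 350.4 CPM in Ad-GFP replicates 2 and 3 and 13.3 CPM in replicate 1. Myh6 was at 14.3 and 10.8 CPM in Ad-RNF128 replicates 1 and 2, against 13.4 and 11.1 CPM in Ad-GFP replicates 2 and 3. Myh7 was at 13.6 and 10.2 CPM there, against 12.2 and 10.8 CPM. Ad-RNF128 replicate 3 stood apart in the other markers, with Myh6 at 0.10, Myl2 at 0.31 and Nppa at 0 CPM, against at least 10.8, 3.98 and 2.72 CPM in every other library. The 8 fibroblast markers summed to 10251 to 11145 CPM in the libraries labelled Ad-RNF128, against 38192 and 39798 CPM in Ad-GFP replicates 2 and 3 and 2956 CPM in replicate 1. Collagens supplied most of these sums. Postn was at 137 to 188 CPM in the libraries labelled Ad-RNF128, against 348 and 273 CPM in Ad-GFP replicates 2 and 3 and 0.978 CPM in replicate 1, and Tcf21, Dcn, Lum and Pdgfra lay between 0 and 2.86 CPM. The 4 skeletal muscle markers with a row summed to 39.9 to 41.8 CPM in the libraries labelled Ad-RNF128, against 101 and 104 CPM in Ad-GFP replicates 2 and 3 and 72.8 CPM in replicate 1. The 5 smooth muscle markers summed to 5087 to 5660 CPM in the libraries labelled Ad-RNF128, against 5248 and 5835 CPM in Ad-GFP replicates 2 and 3 and 4799 CPM in replicate 1. Among them Des was at 66.7 to 69.9 CPM in the libraries labelled Ad-RNF128, against 7.70 and 8.63 CPM in Ad-GFP replicates 2 and 3 and 106 CPM in replicate 1. Myh11, Tagln and Cnn1 were also above replicates 2 and 3, with Myh11 at 27.0 to 28.1 CPM against 7.42 and 9.09 CPM. Replicate 1 held Myh11 at 0.795 CPM. Acta2 was at 3427 to 3899 CPM, below replicates 2 and 3 at 4045 and 4491 CPM, with replicate 1 at 2590 CPM. Endothelial markers summed to 6.73 to 8.01 CPM in the libraries labelled Ad-RNF128. They summed to 4.71 and 4.27 CPM in Ad-GFP replicates 2 and 3 and 6.42 CPM in replicate 1. Leukocyte markers summed to 3.0 to 3.9 CPM in the libraries labelled Ad-RNF128 and to 0.6 to 0.8 CPM in the 3 Ad-GFP libraries. None averaged 5 CPM, and Csf1r, at 1.97 to 2.67 CPM, supplied most of the sums in the libraries labelled Ad-RNF128. Ptprc was near the floor in both groups, at 0, 0.09 and 0.16 CPM in the libraries labelled Ad-RNF128 and 0 in all 3 controls. In bulk RNA fewer cells of a type and less RNA per cell cannot be told apart, and the part these markers have in the results below was not tested.

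Promoters of the 4 genes with the largest rises, Slc2a1, Tpi1, Pfkp and Pfkl, are printed with those of Ldha, a classic target of hypoxia-inducible factors, and Hk2, which did not pass the test. Each is the 250 bases before the gene's start, 5′ to 3′ on the gene's strand, from RefSeq (build GRCr8, matched by symbol for all 9 genes). Capitals mark ACGTG and GCGTG, cores of the hypoxia response element, on either strand.
Slc2a1 (chr5:138002272-138002521, plus strand): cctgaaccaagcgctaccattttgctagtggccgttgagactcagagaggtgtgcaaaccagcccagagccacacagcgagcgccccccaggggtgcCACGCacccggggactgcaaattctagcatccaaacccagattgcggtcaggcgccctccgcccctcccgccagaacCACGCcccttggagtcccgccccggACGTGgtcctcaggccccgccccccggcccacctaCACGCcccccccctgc
Tpi1 (chr4:159305089-159305338, minus strand): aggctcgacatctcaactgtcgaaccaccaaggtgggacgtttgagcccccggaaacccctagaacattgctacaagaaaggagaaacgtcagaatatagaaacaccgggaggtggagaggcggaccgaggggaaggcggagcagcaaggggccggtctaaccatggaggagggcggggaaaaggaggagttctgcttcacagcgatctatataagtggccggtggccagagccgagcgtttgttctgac
Pfkp (chr17:68639563-68639812, plus strand): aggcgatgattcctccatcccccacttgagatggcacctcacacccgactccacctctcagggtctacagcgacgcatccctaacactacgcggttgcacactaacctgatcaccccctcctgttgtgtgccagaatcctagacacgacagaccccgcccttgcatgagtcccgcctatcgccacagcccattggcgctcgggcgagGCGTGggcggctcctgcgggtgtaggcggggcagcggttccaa
Pfkl (chr20:10663715-10663964, plus strand): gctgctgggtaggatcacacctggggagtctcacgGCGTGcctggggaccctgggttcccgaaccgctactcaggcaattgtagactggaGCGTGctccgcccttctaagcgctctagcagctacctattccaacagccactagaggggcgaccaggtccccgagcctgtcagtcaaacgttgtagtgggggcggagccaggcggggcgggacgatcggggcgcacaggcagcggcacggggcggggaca
Ldha (chr1:106507842-106508091, plus strand): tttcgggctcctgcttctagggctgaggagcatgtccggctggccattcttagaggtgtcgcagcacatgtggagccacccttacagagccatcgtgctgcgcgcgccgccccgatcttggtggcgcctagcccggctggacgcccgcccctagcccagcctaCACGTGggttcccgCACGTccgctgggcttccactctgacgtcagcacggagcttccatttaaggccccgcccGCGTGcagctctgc
Hk2 (chr4:116841276-116841525, minus strand): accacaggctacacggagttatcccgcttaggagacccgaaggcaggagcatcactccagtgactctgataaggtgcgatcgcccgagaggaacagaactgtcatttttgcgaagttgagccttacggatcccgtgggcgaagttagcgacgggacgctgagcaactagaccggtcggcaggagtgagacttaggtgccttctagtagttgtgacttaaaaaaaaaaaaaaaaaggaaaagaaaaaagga
Slc2a1 held 4 such cores, Ldha 4, Pfkl 2 and Pfkp 1, while Tpi1 and Hk2 held none in this window. Ldha alone of the 12 promoter entries of the 9 genes held CACGTG, the E-box bound by MYC and by carbohydrate-responsive factors, and each CACGTG also counts as ACGTG on both strands. In all, 6 of the 12 entries held a core, 1 entry each for 6 of the 9 genes. Hk1 and Aldoa, which did not pass the test, each held 1 core in 1 of their entries, and Pkm held none. Of 33469 promoter entries of the same length in the reference, 16.6% held ACGTG, 25.9% GCGTG, 36.7% either core and 5.59% CACGTG. These matches describe the letters and were not tested against the counts.

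With Ad-GFP replicates 2 and 3 as the controls, 5 of the 9 genes rose in the libraries labelled Ad-RNF128 (Slc2a1, Tpi1, Pfkp, Pfkl and Ldha), 0 fell and 4 did not pass (Hk1, Hk2, Aldoa and Pkm). The test was edgeR's quasi-likelihood test on counts, with Benjamini-Hochberg adjustment over all 13173 genes tested and a threshold of 0.05. It called 28.9% of all genes higher and 28.0% lower, 56.9% in either direction, so the called share of the 9 genes, 55.6%, lies near that of all genes. Their median log2 change was 0.31, against 0.01 over all genes tested. With all 3 Ad-GFP libraries 0 of the 9 genes and 0 of 12863 genes tested passed in edgeR (0% called). There 742 genes had an unadjusted p under 0.05, DESeq2 called 386 genes (3.00%, 1.90% higher and 1.10% lower), and the 9 genes had a median log2 change of 0.01. DESeq2 called none of the 9 there and gave no adjusted p for Pfkl, Tpi1 and Pkm. Without replicate 1 it called 5 of the 9 as higher, against 50.1% of all genes in either direction, 25.1% higher and 25.0% lower. Of the 9, Slc2a1 alone passed edgeR with a log2 change of at least 1 in size, as did 12.2% of all genes, 8.37% higher and 3.79% lower. Signs with all 3 controls also depended on the scaling for Slc2a1, Hk1, Hk2 and Pfkl among the 9.

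**Figure D1:**
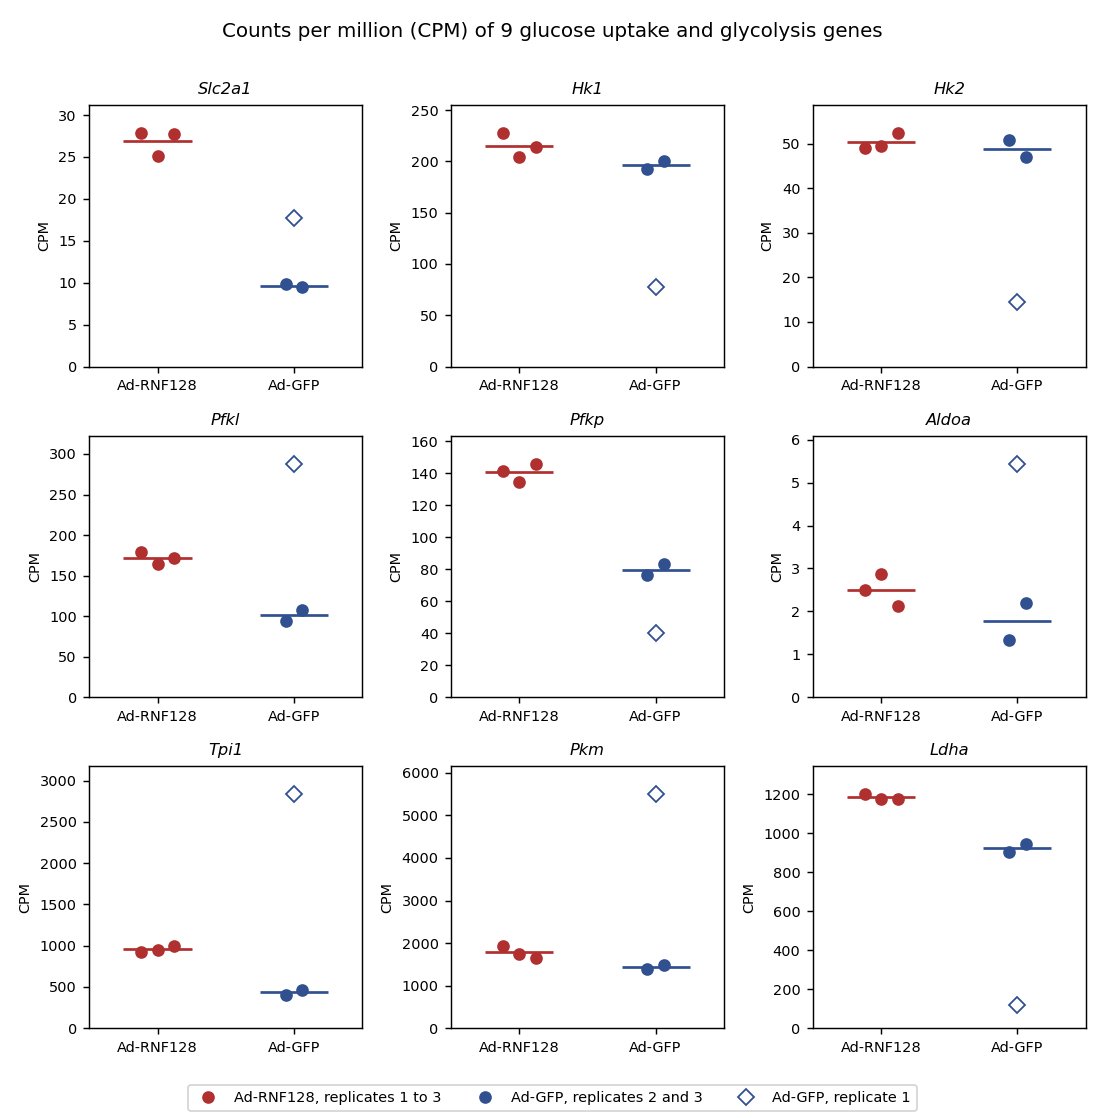
CPM of each of the 9 genes in every library, Ad-RNF128 on the left and Ad-GFP on the right of each panel. Filled points are libraries, horizontal lines are the means of the filled points of a group, and the open diamond is Ad-GFP replicate 1, which lies above the other 5 libraries for Pfkl, Aldoa, Tpi1 and Pkm and below them for Hk1, Hk2, Pfkp and Ldha.

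Glucose transport showed the largest change. Slc2a1 (ENSRNOG00000007284) encodes GLUT1, the transporter of basal glucose uptake in the fetal and newborn heart. It was at 25.1, 27.7 and 27.9 CPM in the libraries labelled Ad-RNF128, against 9.80 and 9.52 CPM in Ad-GFP replicates 2 and 3 and 17.7 CPM in replicate 1. In unscaled CPM all 3 values of the first group lay above all 3 controls. The TMM scaling used in the test gave replicate 1 a factor of 0.47, against 1.08 to 1.22 for the other 5 libraries. After that scaling replicate 1 lies above all 3 libraries of the first group. The log2 change without replicate 1 was 1.33 ± 0.10 (SE, edgeR adjusted p = 3.22e-08), a fold of 2.51. With all 3 controls it was 0.26 ± 0.67 (edgeR adjusted p = 0.964).

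Slc2a4 encodes GLUT4, which insulin brings to the surface of muscle cells. It was at 23.1, 21.2 and 23.0 CPM in the libraries labelled Ad-RNF128, against 13.6 and 13.4 CPM in Ad-GFP replicates 2 and 3 and 41.2 CPM in replicate 1. Without replicate 1 its log2 change was 0.57 ± 0.09 (edgeR adjusted p = 0.000104), and with it -1.02, which did not pass. The ratio of Slc2a1 to Slc2a4 CPM within a library was 1.09, 1.30 and 1.22 in the libraries labelled Ad-RNF128 and 0.430, 0.720 and 0.710 in Ad-GFP replicates 1, 2 and 3. The groups did not overlap in this ratio, which the scaling of libraries cannot change. Its log2 means differed by 0.99 (exact two-sided permutation p = 0.1, the smallest that 3 against 3 allows).

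Of 9 tested genes of glucose and lactate transport, Slc2a1 included, 7 rose and 0 fell without Ad-GFP replicate 1, where 28.9% of all genes rose and 28.0% fell. Slc2a3, the GLUT3 gene, did not pass, with a log2 change of 0.00 ± 0.07, and Slc2a8 rose by 0.39 ± 0.08. The monocarboxylate transporter genes Slc16a1 (MCT1) and Slc16a7 (MCT2) rose by 0.65 ± 0.07 and 0.33 ± 0.09 on the log2 scale, and Bsg, whose protein escorts MCT1 to the membrane, by 0.48 ± 0.07. Slc2a12, which passed at a mean under 5 CPM, is named after its values were seen. When all 3 controls were used 0 passed, Slc16a1 and Slc16a7 had log2 changes of 1.06 and 0.82, and Slc2a8 and Bsg had -1.56 and -1.79.

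**Figure D2:**
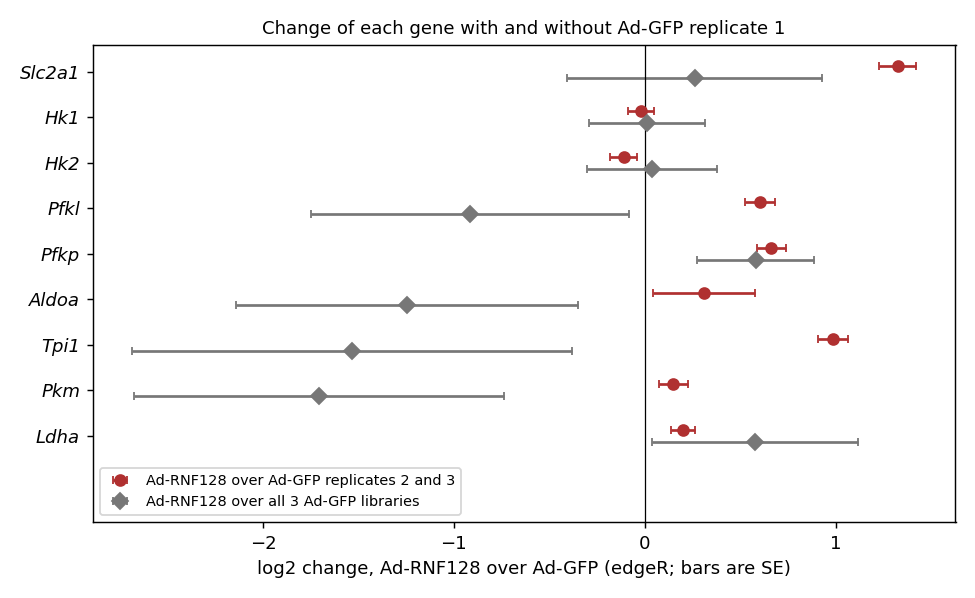
The log2 change of each of the 9 genes, Ad-RNF128 over Ad-GFP, with its SE as bars. Red circles use Ad-GFP replicates 2 and 3, where Slc2a1 (1.33) and Tpi1 (0.99) lie farthest to the right; grey diamonds use all 3 Ad-GFP libraries, where Pfkl, Aldoa, Tpi1 and Pkm lie left of 0 and no gene passed.

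Hk1 and Hk2 showed no called change. Hk1 (ENSRNOG00000046891), the widely expressed hexokinase, was at 205, 214 and 228 CPM in the libraries labelled Ad-RNF128, against 192 and 200.1 CPM in Ad-GFP replicates 2 and 3 and 77.8 CPM in replicate 1. Its CPM ranges did not overlap, yet with TMM scaling the log2 change without replicate 1 was -0.02 ± 0.07 (edgeR adjusted p = 0.835). With library totals alone it was 0.14 (edgeR adjusted p = 0.0826), so its sign depends on the scaling. Hk2 (ENSRNOG00000006116), the insulin-responsive hexokinase of muscle, was at 49.5, 52.4 and 48.9 CPM in the libraries labelled Ad-RNF128, against 50.7 and 47.0 CPM in Ad-GFP replicates 2 and 3 and 14.4 CPM in replicate 1.

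The ranges of Hk2 overlapped, and its log2 change was -0.11 ± 0.07 without replicate 1 (edgeR adjusted p = 0.194), 0.044 with library totals alone and 0.04 with all 3 controls. For Hk1 the value with all 3 controls was 0.01. The ratio of Hk2 to Hk1 CPM was 0.242, 0.245 and 0.215 in the libraries labelled Ad-RNF128 and 0.185, 0.264 and 0.235 in Ad-GFP replicates 1, 2 and 3. These ranges overlapped as well. The log2 means differed by 0.05 (exact two-sided permutation p = 0.8), and by -0.09 without Ad-GFP replicate 1 (exact p = 0.6, with 0.2 the smallest possible).

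At the committing step both listed phosphofructokinase genes rose. Pfkp (ENSRNOG00000017163), the platelet-type gene, was at 134.5, 146 and 142 CPM in the libraries labelled Ad-RNF128, against 76.3 and 83.2 CPM in Ad-GFP replicates 2 and 3 and 40.1 CPM in replicate 1. Every library of the first group lay above every control. The log2 change was 0.66 ± 0.07 without replicate 1 (edgeR adjusted p = 2.69e-06) and 0.58 ± 0.31 with it (edgeR adjusted p = 0.681).

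Pfkl (ENSRNOG00000001214), the liver-type gene, was at 165, 172 and 179 CPM in the libraries labelled Ad-RNF128, against 94.5 and 108 CPM in Ad-GFP replicates 2 and 3 and 288 CPM in replicate 1. Replicate 1 thus exceeded all other libraries. Without it the log2 change was 0.61 ± 0.08 (edgeR adjusted p = 1.37e-05), and with it -0.91 ± 0.83 (edgeR adjusted p = 0.779), or 0.071 with library totals alone.

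The muscle-type gene Pfkm moved the other way. It was at 195.2, 181 and 195.4 CPM in the libraries labelled Ad-RNF128, against 253 and 276 CPM in Ad-GFP replicates 2 and 3 and 173 CPM in replicate 1. Its log2 change was -0.63 ± 0.07 without replicate 1 (edgeR adjusted p = 2.86e-06) and -0.86 with it. Pfkl and Pfkp together made up 60.5%, 63.8% and 62.1% of the summed CPM of the 3 genes in the libraries labelled Ad-RNF128, against 40.3% and 41.0% in Ad-GFP replicates 2 and 3. Replicate 1 was at 65.5%, above all others, and with it the group means differed by 13.2 percentage points (exact two-sided permutation p = 0.4). Without replicate 1 they differed by 21.5 points (exact p = 0.2, the smallest possible). CPM is not corrected for transcript length, so only differences between libraries are read from these shares and ratios.

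Genes that set the level of fructose 2,6-bisphosphate, the activator of phosphofructokinase, rose in 3 of 5 tested cases and fell in 1 without replicate 1, where 56.9% of all genes were called. Pfkfb3 and Pfkfb2, whose enzymes make it, rose by 0.59 ± 0.08 and 0.61 ± 0.08 on the log2 scale, and Tigar, whose product removes it, rose by 0.45 ± 0.08. Pfkfb1 fell and is named after its values were seen, since it averaged under 5 CPM. Against all 3 controls Pfkfb3, Pfkfb2 and Tigar had log2 changes of 0.86, 1.08 and 0.63, and none passed.

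**Figure D3:**
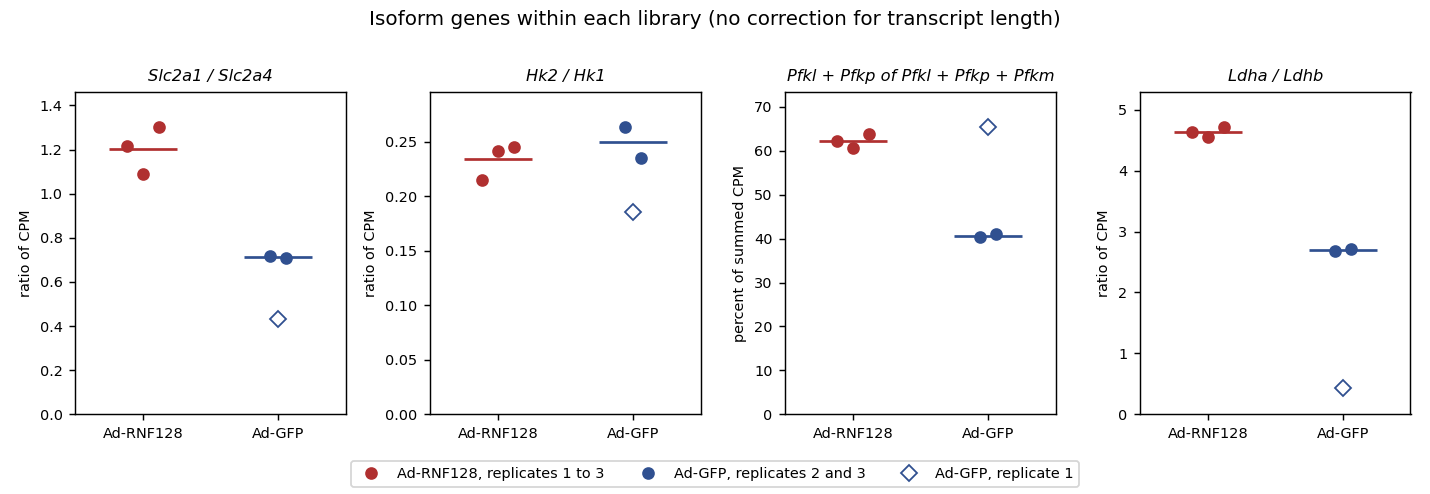
Ratios or shares of isoform genes within each library, Ad-RNF128 left and Ad-GFP right, with lines at the means of the filled points and replicate 1 of Ad-GFP as an open diamond. The Slc2a1 to Slc2a4 and Ldha to Ldhb ratios lie above all 3 controls in every library labelled Ad-RNF128, while the Hk2 to Hk1 ratio overlaps between groups.

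In the triose steps Tpi1 (ENSRNOG00000015290), the gene of triose phosphate isomerase, was at 951, 995 and 919.7 CPM in the libraries labelled Ad-RNF128. Ad-GFP replicates 2 and 3 held it at 401 and 463 CPM and replicate 1 at 2833 CPM. The first group therefore lay above 2 controls and below the third. The log2 change was 0.99 ± 0.08 without replicate 1 (edgeR adjusted p = 7.15e-08) and -1.53 ± 1.15 with it (edgeR adjusted p = 0.721). In the reference, 3 pseudogenes carry its name, and how reads shared with such copies were counted is not stated.

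Aldoa, the aldolase gene of muscle and most other tissues, was read at a very low level. It has 2 rows with the same identifier (ENSRNOG00000067655), and the row with the higher mean count was used. That row was at 2.87, 2.12 and 2.49 CPM in the libraries labelled Ad-RNF128, against 1.33 and 2.20 CPM in Ad-GFP replicates 2 and 3 and 5.44 CPM in replicate 1. The ranges overlapped, and the log2 change of 0.31 ± 0.27 without replicate 1 did not pass (edgeR adjusted p = 0.342). With it the change was -1.25 ± 0.90 (edgeR adjusted p = 0.712). The other row did not exceed 1.47 CPM, and 9 pseudogenes carry the name of Aldoa in the reference, so its counts are uncertain.

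Pkm (ENSRNOG00000011329) encodes pyruvate kinase in the splice forms PKM1 and PKM2, which counts per gene do not separate. It was at 1753, 1654 and 1939 CPM in the libraries labelled Ad-RNF128, against 1394 and 1489 CPM in Ad-GFP replicates 2 and 3 and 5496 CPM in replicate 1. The CPM ranges without replicate 1 did not overlap, but the log2 change of 0.15 ± 0.08 did not pass (edgeR adjusted p = 0.11). Library totals alone gave 0.31 (edgeR adjusted p = 0.00212), and all 3 controls gave -1.71 ± 0.97 (edgeR adjusted p = 0.681). Leaving out Ad-RNF128 replicate 2 or Ad-GFP replicate 3 as well brought the change to 0.22 and 0.23, both past the threshold (edgeR adjusted p of 0.0333 and 0.0341).

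Ldha (ENSRNOG00000013009), the gene of the M subunit of lactate dehydrogenase, was at 1176, 1177 and 1200.1 CPM in the libraries labelled Ad-RNF128, against 904 and 946 CPM in Ad-GFP replicates 2 and 3 and 119 CPM in replicate 1. All 3 values lay above all 3 controls. The rise was small, with a log2 change of 0.20 ± 0.06 without replicate 1 (edgeR adjusted p = 0.0141), and leaving out Ad-GFP replicate 2 too gave 0.14 (edgeR adjusted p = 0.0936); the call then ended. With all 3 controls the change was 0.58 ± 0.54 (edgeR adjusted p = 0.788). In the reference 30 pseudogenes carry the name of Ldha and 19 that of Pkm, none has a row of that name in the tables, and both counts may be affected by how shared reads were assigned.

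Ldhb, the gene of the H subunit typical of heart, fell. It was at 259, 249 and 259 CPM in the libraries labelled Ad-RNF128, against 338 and 349 CPM in Ad-GFP replicates 2 and 3 and 276 CPM in replicate 1, below all 3 controls. Its log2 change was -0.58 ± 0.06 without replicate 1 (edgeR adjusted p = 2.00e-06) and -0.95 with it. The ratio of Ldha to Ldhb CPM was 4.55, 4.72 and 4.63 in the libraries labelled Ad-RNF128, against 2.68 and 2.71 in Ad-GFP replicates 2 and 3 and 0.432 in replicate 1. This ratio did not overlap between the groups, and its log2 means differed by 1.66 (exact two-sided permutation p = 0.1, the smallest possible). Without replicate 1 they differed by 0.78 (exact p = 0.2, the smallest possible), and leaving out each library in turn gave 0.78 to 2.11.

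Among 15 tested further enzymes of the pathway, 8 rose, 3 fell and 4 did not pass without Ad-GFP replicate 1, against 28.9% higher and 28.0% lower over all genes. Those that fell were Pfkm, Ldhb and Eno3, the muscle enolase gene, at 51.1, 52.8 and 48.8 CPM in the libraries labelled Ad-RNF128, against 77.9 and 84.0 CPM in Ad-GFP replicates 2 and 3 and 94.0 CPM in replicate 1 (log2 change -0.82 ± 0.07). Eno2, the enolase gene typical of neurons, rose by 1.15 ± 0.07 on the log2 scale, and the widely expressed Eno1 by 0.21 ± 0.07. Pgam1, a phosphoglycerate mutase gene, rose by 0.39 ± 0.07, Bpgm, its bisphosphoglycerate relative, by 0.25 ± 0.09, and the D-lactate dehydrogenase gene Ldhd by 0.82 ± 0.09. Hk3 and Aldoc, which also rose at a mean under 5 CPM, are named after their values were seen.

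The isomerase gene Gpi and Gapdh did not pass, with log2 changes of -0.12 ± 0.07 and 0.09 ± 0.06. Set against all 3 controls, Eno2, Eno1, Pgam1, Bpgm, Ldhd and Gapdh had log2 changes of -0.72, -1.59, -0.46, -0.14, -0.53 and -0.78, opposite in sign under TMM scaling to those without replicate 1, while Eno3 and Gpi had -1.47 and -0.54. None of these passed. With library totals alone and all 3 controls, Eno2 was at 0.34, Pgam1 at 0.34, Bpgm at 0.49, Ldhd at 0.41, Gapdh at 0.023 and Gpi at 0.10, so these signs depend on the scaling, while Eno1 at -0.54 and Eno3 at -0.74 kept theirs. Gpi without replicate 1 was at 0.035 with library totals alone.

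**Figure D4:**
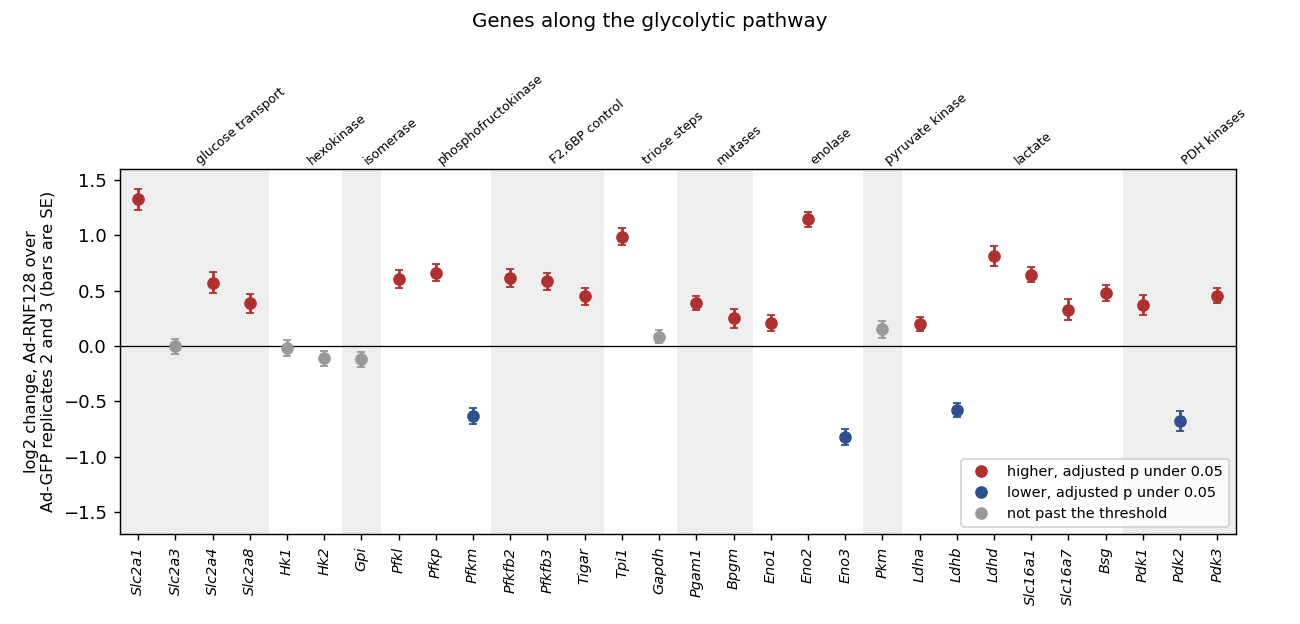
The log2 change of selected genes along glycolysis that averaged at least 5 CPM, Ad-RNF128 over Ad-GFP replicates 2 and 3, with SE as bars. Of the genes of pyruvate entry to mitochondria only Pdk1, Pdk2 and Pdk3 are drawn. Others of that step that rose or fell, such as Pdha1 and Pdp2, which fell, are left out. Red points passed as higher, blue points (Pfkm, Eno3, Ldhb and Pdk2) as lower, and grey points did not pass.

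Pyruvate may also enter mitochondria, where the pyruvate dehydrogenase complex (PDH) oxidises it and PDH kinases switch it off. Of 15 genes of this step, 5 rose and 4 fell without replicate 1, with a median log2 change of 0.01, the same as over all genes, of which 56.9% were called. The kinase genes Pdk1 and Pdk3 rose by 0.37 ± 0.09 and 0.46 ± 0.07, while the kinase gene Pdk2 had a log2 change of -0.68 ± 0.09, Pdha1, of the catalytic E1 subunit, -0.44 ± 0.06, and the PDH phosphatase gene Pdp2 -0.37 ± 0.07. Values with all 3 controls were 0.75 for Pdk1, 0.76 for Pdk3, -1.01 for Pdk2, 0.05 for Pdha1 and 0.08 for Pdp2, and none passed. Median-of-ratios size factors turned Pdha1 to -0.0081.

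Calls in the branches of the pathway went both ways without replicate 1, as they did over all genes (28.9% higher and 28.0% lower). In the pentose phosphate pathway 3 of 6 tested genes rose and 2 fell, with the transaldolase gene Taldo1 up by 1.04 ± 0.08, Rpia and Rpe of the pentose interconversions up by 0.53 ± 0.09 and 0.37 ± 0.07, and the dehydrogenase gene Pgd at -0.35 ± 0.06. Of 11 tested glycogen genes 4 rose and 3 fell. The branching enzyme gene Gbe1 rose by 0.53 ± 0.08, Pgm1, of glucose phosphate interconversion, by 0.44 ± 0.08 and the glycogen synthase gene Gys1 by 0.38 ± 0.08, while Gsk3b, whose kinase inhibits glycogen synthase, was at -0.40 ± 0.07.

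Of 8 tested genes of the hexosamine and polyol branches 2 rose and 3 fell, a called share near the 56.9% of all genes. Sord, the sorbitol dehydrogenase gene, rose by 0.74 ± 0.07, while Gfpt1, of the first hexosamine step, had -0.60 ± 0.06, Pgm3 -0.53 ± 0.07 and Ogt, the O-GlcNAc transferase gene, -0.37 ± 0.07. Including replicate 1, Taldo1, Rpia, Rpe and Pgd had -1.36, -0.32, 0.90 and -1.09, Gbe1, Pgm1, Gys1 and Gsk3b 1.07, -0.69, -0.35 and -0.03, and Sord, Gfpt1, Pgm3 and Ogt -0.99, -0.08, -0.10 and 0.19. No gene of these 3 lists passed there. Library totals alone turned 7 of these signs, to 0.47 for Rpia, 0.19 for Pgm1, 0.41 for Gys1, 0.25 for Gsk3b, 0.040 for Sord, 0.11 for Gfpt1 and 0.14 for Pgm3.

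Regulators of glycolysis genes were measured in the same libraries. Of 17 tested, 8 rose and 3 fell without replicate 1, against 28.9% higher and 28.0% lower over all genes. Myc, a transcription factor that acts on many glycolysis genes, was at 43.7, 50.8 and 52.1 CPM in the libraries labelled Ad-RNF128, against 6.31 and 5.44 CPM in Ad-GFP replicates 2 and 3 and 51.0 CPM in replicate 1. Its log2 change was 2.91 ± 0.11 without replicate 1 (edgeR adjusted p = 2.50e-11) and 0.02 with it, where library totals alone gave 1.23 and median-of-ratios size factors -0.50. In unscaled CPM replicate 1 lay between the lowest and highest of the 3 libraries labelled Ad-RNF128. With its TMM factor of 0.47 it lies above them.

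Hif1a, the oxygen-regulated subunit of hypoxia-inducible factor 1, was at 153, 147.5 and 147.1 CPM in the libraries labelled Ad-RNF128, against 118 and 108 CPM in Ad-GFP replicates 2 and 3 and 1.77 CPM in replicate 1. Its log2 change was 0.25 ± 0.06 without replicate 1 (edgeR adjusted p = 0.00403) and 0.80 with it. Txnip, whose protein lowers glucose uptake, was at 329, 281 and 261 CPM in the libraries labelled Ad-RNF128, against 124 and 127 CPM in Ad-GFP replicates 2 and 3 and 87.6 CPM in replicate 1. Its ranges did not overlap, and its log2 change was 1.06 ± 0.09 without replicate 1 (edgeR adjusted p = 1.10e-07) and 0.78 with it (edgeR adjusted p = 0.681).

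The transcription factor genes Klf15 and Mlx rose by 1.32 ± 0.15 and 0.49 ± 0.07 without replicate 1 and had log2 changes of 0.51 and 0.38 with it. Among 13 tested hypoxia-inducible genes outside glycolysis, 10 rose and 2 fell without replicate 1, with a median log2 change of 0.58, against 28.9% higher, 28.0% lower and a median of 0.01 over all genes. Bnip3, a mitophagy receptor gene, rose by 1.75 ± 0.08 and Ero1a, of protein oxidation in the endoplasmic reticulum, by 1.19 ± 0.07, while Plod2, a collagen lysyl hydroxylase gene, had -1.07 ± 0.07 and the stress-responsive Ddit4 -0.81 ± 0.07. With all 3 controls these 4 were at 2.27, 1.57, -0.53 and -1.66, and none passed.

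Ad-GFP replicate 1 departed from the other controls in both directions within the pathway. Against the mean CPM of replicates 2 and 3 it held Tpi1 at 6.55 times, Pkm at 3.81 times, Aldoa at 3.08 times, Pfkl at 2.84 times and Slc2a1 at 1.84 times the level. Pfkp was at 0.502, Hk1 at 0.397, Hk2 at 0.295 and Ldha at 0.129 of it. In CPM it lay above all 5 other libraries for 4 of the 9 genes, below them for 4 and between them for 1. The 9 genes together took 0.444% to 0.469% of the counts in the libraries labelled Ad-RNF128, against 0.312% and 0.335% in Ad-GFP replicates 2 and 3 and 0.889% in replicate 1. TMM scaling gave replicate 1 a factor of 0.47, against 1.08 to 1.22 for the other 5, so its scaled values weigh on every log2 change with all 3 controls. Mitochondrial genes made up 0.951% of replicate 1, against 3.08% to 5.35% of the other 5 libraries, and the part of this in the values above was not tested.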

How the data were processed

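RNA-seq of 3 libraries labelled Ad-RNF128 and 3 labelled Ad-GFP, grouped by sample title, was analysed. The authors deposited counts of reads per gene, made with HISAT2 (no version listed) and HTSeq 0.13.5 on build mRatBN7.2, per the submitters' processing notes. In the deposited table of Ad-GFP replicate 1 a single entry, 344.5, was not whole, so its values were read as estimated counts and rounded. The 106 rows that repeat an identifier were kept. Per the labels' protocols, cells were harvested after 48 h and 1.5 µg of RNA entered each library. Strand setting and annotation release are not given in the sources used here.

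CPM was computed from all counts of a library. Tests used edgeR 4.0.16 in R 4.3.3 (filterByExpr, TMM, quasi-likelihood F-test, Benjamini-Hochberg over all genes), checked on simulated data. The simulated libraries were drawn from a common mean profile with few changed genes. None of them stood apart as Ad-GFP replicate 1 does, so that check does not cover such a library or a large share of changed genes. The SE is the log2 change over the root of F. DESeq2 1.42.0 was an alternative, beside other scalings, filters, thresholds, left-out libraries and a replicate block. A ratio of isoform genes was tested by exact permutation. Where no p is printed beside a named gene said to have risen or fallen, edgeR's adjusted p was under 0.05. All 9 genes were named, with every pathway enzyme or transporter averaging at least 5 CPM, the 4 smallest p of each other list at that level, and Hif1a, Myc, Txnip and Pdk1, and Rnf128 and Rnf157 to check the label. The members and lists were chosen with earlier results of these data known. Counting error only is covered by totals of counts, and biological replication is not stated.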

Additional observations from a re-analysis of the deposited data

How the results depend on the processing

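With Ad-GFP replicates 2 and 3 as controls, 5 of the 9 genes rose; 1 did when a log2 change of at least 1 was asked for, and 6 with library totals alone. No setting called one of the 9 as lower. Over all genes, 3812 rose and 3689 fell, against 5367 and 2409 with library totals alone. That scaling put the all-gene median at 0.17, not 0.01, and 69.0% of calls, not 50.8%, were then higher. The counts were 1102 and 499 with a log2 change of at least 1. The wider lists held 49 higher and 21 lower genes, or 14 and 1 at that size. Leaving out each further library gave 4 to 6 of the 9 genes, 3244 to 3716 higher and 3200 to 3409 lower genes, and 43 to 46 and 19 to 22 in the wider lists. A control group of 1 library then borrows its spread from the other group.

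Hk1 reversed to 0.14 and Hk2 to 0.044 with library totals alone, and Hk1 ranged from -0.074 to 0.037 and Aldoa from -0.012 to 0.77 with single libraries left out. None of these passed. The 71 called genes of the wider lists, Slc2a1 included, kept their sign under both other scalings.

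With all 3 controls, 0 genes passed in edgeR, against 8 higher with library totals alone and 244 higher and 142 lower in DESeq2. Leaving out each library gave 0 to 3812 higher and 0 to 3689 lower genes, 0 to 5 of the 9, and 0 to 49 and 0 to 21 in the wider lists, the highest without Ad-GFP replicate 1. Median-of-ratios size factors reversed Slc2a1 to -0.15, Hk1 to -0.20 and Hk2 to -0.14, as did DESeq2 (-0.15, -0.20 and -0.14), and library totals alone reversed Pfkl to 0.071. With libraries left out, Slc2a1 ranged from -0.064 to 1.33, Hk1 from -0.031 to 0.070, Hk2 from -0.11 to 0.16, Pfkl from -1.31 to 0.61, Aldoa from -1.69 to 0.31, Tpi1 from -2.02 to 0.99 and Pkm from -2.14 to 0.15. The log2 difference of the Hk2 to Hk1 ratio ranged from -0.093 to 0.16. The cause was not tested.

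Deviations of same-numbered libraries from their group means had correlations of -0.17, 0.01 and -0.13. The Ad-GFP mean includes replicate 1, which stands apart and shapes all these deviations. Whether the replicate number is a pairing therefore cannot be decided from them. With the replicate block 0 of the 9 genes passed with all 3 controls. Without Ad-GFP replicate 1 the replicate block called 6, adding Pkm (log2 change 0.16, edgeR adjusted p = 0.0095), 3931 higher and 3864 lower genes in all, and turned Hk1 to 0.019, which did not pass. Aldoa rests on few reads, and its depth limits what can be detected.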
